A study of Homo sapiens with 6 samples.

Results

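ACSL1, CPT1A, CPT2 and ETFDH encode successive steps by which long-chain fatty acids are activated, carried into mitochondria and drained of electrons. The genes were chosen by name, with their differences on these arrays already known, and each was read from the probe set with the highest mean level. All 4 were measured, out of 14884 genes named on the arrays. They were compared between 3 arrays of HK2 cells with an shRNA against PGC-1alpha (shPGC-1alpha) and 3 arrays of HK2 cells with an shRNA against GFP (shGFP), a protein that human cells lack. HK2 is an immortalised line from the epithelium of the human proximal tubule, the part of the nephron that does most of the reabsorption and draws much of its energy from fatty acids. Cells of both groups carried a pLKO.1 lentiviral vector, had passed puromycin selection, and were harvested on day 5, 24 hours after selection ended. The labels number the arrays as biological replicates 1 to 3. They do not say how many hairpins were used or whether the cultures were transduced separately, so every error and p-value reflects the spread between these samples, which may be technical.

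A long-chain fatty acid is first joined to coenzyme A. ACSL1 is one of the long-chain acyl-CoA synthetases that do this at the outer mitochondrial membrane and the endoplasmic reticulum. CPT1A, in the outer mitochondrial membrane, moves the acyl group onto carnitine in the step that malonyl-CoA inhibits, and a carrier takes the acylcarnitine across the inner membrane. CPT2, on the matrix side of the inner membrane, restores the acyl-CoA for beta-oxidation. The acyl-CoA dehydrogenases then pass electrons to the electron transfer flavoprotein, and ETFDH, an oxidoreductase on the matrix side of the inner membrane, hands them to ubiquinone. PGC-1alpha is a transcriptional coactivator known for raising mitochondrial and fatty acid oxidation genes together with the nuclear receptors PPARalpha and ERRalpha.

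RefSeq promoter windows of the GRCh38.p14 build were at hand for 3 of the 4 members. The 250 bases before a start site of each are shown, because the windows printed differ widely in base composition and motifs. ACSL1 has 5 such windows, and the one farthest upstream is chr4:184825969-184826218 on the minus strand. The CPT1A window is chr11:68844278-68844527 on the minus strand and the CPT2 window chr1:53196574-53196823 on the plus strand. Capitals mark matches on either strand to the GC box GGGCGG or the ETS motif CCGGAAG.
ACSL1: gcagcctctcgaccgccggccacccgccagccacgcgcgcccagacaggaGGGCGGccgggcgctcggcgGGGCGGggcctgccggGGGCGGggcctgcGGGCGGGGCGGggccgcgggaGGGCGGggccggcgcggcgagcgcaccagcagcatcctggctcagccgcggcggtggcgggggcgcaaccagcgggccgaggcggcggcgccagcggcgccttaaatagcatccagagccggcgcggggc
CPT1A: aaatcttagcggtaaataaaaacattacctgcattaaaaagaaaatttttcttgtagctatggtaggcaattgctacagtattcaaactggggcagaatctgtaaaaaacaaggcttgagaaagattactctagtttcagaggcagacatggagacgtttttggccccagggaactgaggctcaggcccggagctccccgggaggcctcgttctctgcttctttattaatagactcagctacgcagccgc
CPT2: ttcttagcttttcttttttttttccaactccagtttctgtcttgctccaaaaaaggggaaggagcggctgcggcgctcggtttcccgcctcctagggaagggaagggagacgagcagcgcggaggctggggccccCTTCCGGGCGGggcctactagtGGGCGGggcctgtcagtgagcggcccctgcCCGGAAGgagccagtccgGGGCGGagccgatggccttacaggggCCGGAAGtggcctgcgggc

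The ACSL1 window held 6 GC boxes, a pair of which share a base, in a sequence of 83.6% GC. The CPT2 window held 3 GC boxes and 3 ETS motifs at 65.2% GC, and its first ETS match overlaps its first GC box. The CPT1A window held neither motif and was 44.4% GC, against a median of 58% over all 35116 windows. A GC box was found in 42.6% of all windows and the ETS motif in 8.52%. The nuclear receptor hexamer AGGTCA (12.1% of windows), the PPAR-type direct repeat of that hexamer with 1 base between the copies (0.0171%), the ERR element TCAAGGTCA (0.319%), the NRF1 core (7.16%) and TATAAA (10.7%) had 0 matches in the windows of these 3 genes. All of them were searched on both strands, and a TCAAGGTCA match also contains the hexamer, as does the direct repeat. The other 4 ACSL1 windows held 1 GC box between them and ranged from 46.8% to 61.2% GC, nearer to the CPT1A window. Which start sites HK2 cells use was not analysed.

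The arrays gave log2 RMA values (normalised and summarised per probe set), with array medians between 5.00 and 5.04. Across probe sets, Pearson's r lay between 0.988 and 0.992 for arrays within a group, and between 0.982 and 0.987 for arrays from unlike groups. The limma fit across 14884 genes called 3243 at a Benjamini-Hochberg adjusted p under 0.05, of which 1426 were higher and 1817 lower in shPGC-1alpha cells, and 1867 were higher and 1440 lower when each array was centred on the median of the named genes. PPARGC1A, the gene of PGC-1alpha, was not analysed here, so the knockdown was not checked on these arrays. Of 18 listed markers of proximal tubule and kidney epithelium 11 were measured, of which 1 was higher, 4 were lower and 6 were not called. The share called was 45.5%, against 21.8% of all genes. PAX8 averaged 11.82 in shPGC-1alpha cells and 11.44 in shGFP cells, and HAVCR1 11.61 in shPGC-1alpha cells and 11.97 in shGFP cells. The keratin KRT19 averaged 7.90 in shPGC-1alpha cells and 9.32 in shGFP cells, a log2 difference of -1.42 and the largest of the list, and MME and KRT18 fell by 0.61 and 0.31. The proximal tubule receptors LRP2 and CUBN, at 3.97 and 3.92 over the 6 arrays, lay below 4.43, the 20th percentile of all named genes. Of the endothelial markers 5 of 6 were measured, at a mean level of 4.01 to 4.12 in shPGC-1alpha arrays and 4.04 to 4.12 in shGFP arrays, and 0 were called. Of the adipocyte markers 3 of 5 were measured and 0 called. The 2 measured fibroblast markers of 7, DCN and LUM, were higher, with a mean level of 6.92 to 7.04 in shPGC-1alpha arrays and 6.13 to 6.22 in shGFP arrays. LUM averaged 9.33 in shPGC-1alpha cells and 8.57 in shGFP cells, while DCN, at 4.63 in shPGC-1alpha cells and 3.80 in shGFP cells, lay below the 20th percentile over the 6 arrays. Of the 2 measured leukocyte markers of 6, CD68, a lysosomal protein, was higher by 0.34 and CD14 was not called. The part of these markers in the results was not tested.

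ACSL1 and CPT1A, the steps at the outer membrane, were higher in shPGC-1alpha cells, and CPT2 and ETFDH, the steps at the matrix side, were lower. Since these genes were chosen on this contrast, their differences are given as a description with no test. In these bulk extracts, fewer cells with a transcript and less of it per cell cannot be told apart. ACSL1 had log2 values of 7.03, 6.97 and 6.97 in shPGC-1alpha arrays 1 to 3, against 5.41, 5.56 and 5.66 in shGFP arrays 1 to 3. The groups did not overlap, and the nearest arrays lay 1.32 log2 units apart. The means were 6.99 ± 0.04 in shPGC-1alpha cells and 5.54 ± 0.12 in shGFP cells (SD, n = 3 each), a log2 difference of 1.45 (SE 0.08) or 2.73-fold higher. That was the increase of rank 42 among the 14884 genes.

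CPT1A had log2 values of 6.43, 6.65 and 6.45 in shPGC-1alpha arrays, against 5.91, 5.77 and 5.72 in shGFP arrays. The lowest shPGC-1alpha array lay 0.51 above the highest shGFP array. The means were 6.51 ± 0.12 in shPGC-1alpha cells and 5.80 ± 0.10 in shGFP cells (SD, n = 3 each), a log2 difference of 0.71 (SE 0.09) or 1.64-fold, the increase of rank 271.

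CPT2 had log2 values of 7.04, 6.86 and 6.78 in shPGC-1alpha arrays, against 7.40, 7.37 and 7.32 in shGFP arrays. All shPGC-1alpha arrays lay below all shGFP arrays, with the nearest 0.28 apart, and their range of 0.26 was wider than that of the shGFP arrays, 0.08. The means were 6.90 ± 0.13 in shPGC-1alpha cells and 7.36 ± 0.04 in shGFP cells (SD, n = 3 each), a log2 difference of -0.47 (SE 0.08), which is 1.38-fold lower. CPT2 was the only member with a further probe set, which was dimmer, at a mean of 4.74 over the 6 arrays. That probe set read 4.62, 4.86 and 4.54 in shPGC-1alpha arrays, against 4.82, 4.82 and 4.78 in shGFP arrays. Its groups overlapped, because shPGC-1alpha replicate 2 lay above every shGFP array, and its log2 difference was -0.14 (SE 0.10). That SE came from a fit of all probe sets, in which the SE of the brighter CPT2 probe set was 0.09. The size of the CPT2 difference therefore depends on the probe set, whereas its sign was the same in both.

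ETFDH had log2 values of 6.80, 6.65 and 6.80 in shPGC-1alpha arrays, against 7.13, 7.19 and 7.20 in shGFP arrays. The groups were 0.33 apart at their nearest. The means were 6.75 ± 0.08 in shPGC-1alpha cells and 7.18 ± 0.04 in shGFP cells (SD, n = 3 each), a log2 difference of -0.42 (SE 0.07), which is 1.34-fold lower. CPT2 and ETFDH were the decreases of rank 889 and 1078, so many genes fell by more, while few rose by more than ACSL1. The groups did not overlap for 4 of 4 members, and for 38.7% of all genes (17.2% with shPGC-1alpha arrays higher and 21.5% with them lower).

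**Figure D1:**
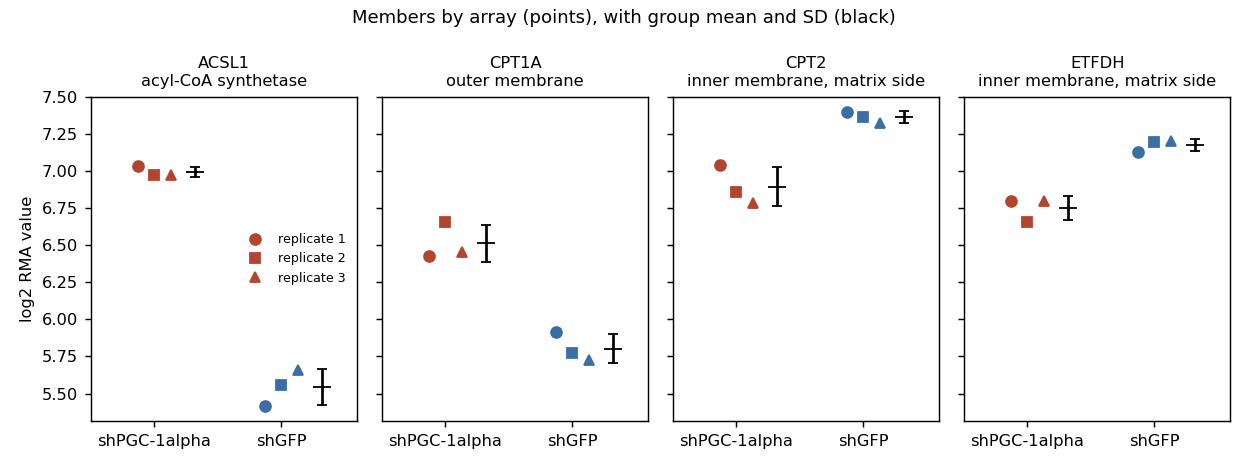
Log2 RMA value (y axis) of ACSL1, CPT1A, CPT2 and ETFDH in each array, with shPGC-1alpha at the left of each panel and shGFP at the right. Symbols are replicates and black bars the group mean and SD. ACSL1 and CPT1A sit higher and CPT2 and ETFDH lower in shPGC-1alpha arrays, with no overlap between groups. Levels of different probe sets are not comparable, only the shifts within a panel.

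**Figure D2:**
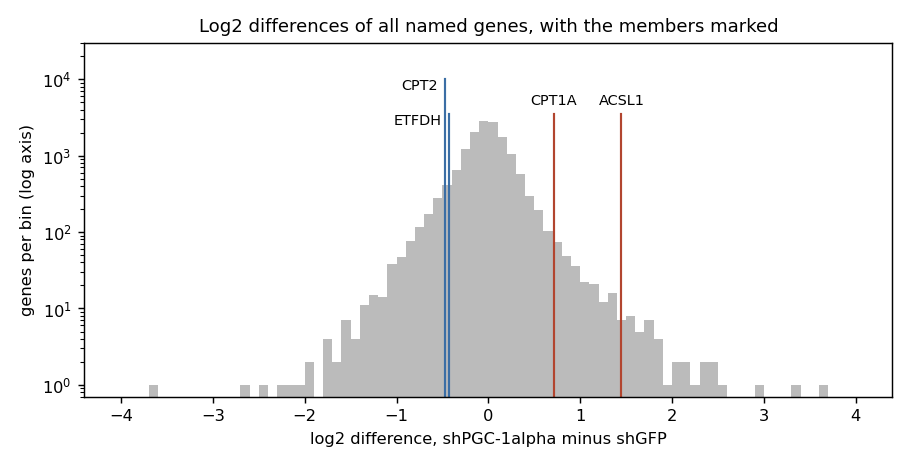
Number of genes (y axis, log scale) by log2 difference, shPGC-1alpha minus shGFP (x axis), over 14884 genes, with the members marked by vertical lines. ACSL1, at 1.45, lies in the sparse right tail, CPT1A at 0.71, and CPT2 and ETFDH, at -0.47 and -0.42, on the left, as the decreases of rank 889 and 1078.

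The split can also be read within each array, since the gap between 2 probe sets of the same array is unaffected by a shift of the whole array. The gap was taken as the mean of ACSL1 and CPT1A minus the mean of CPT2 and ETFDH, relative to its mean in shGFP arrays. It was 1.41, 1.65 and 1.52 in shPGC-1alpha arrays, against 0.00, -0.02 and 0.02 in shGFP arrays. The shGFP arrays were nearly identical in this measure and all 3 shPGC-1alpha arrays stood above them. In the shGFP arrays, ACSL1 and CPT1A deviated from their group means in opposite directions, which largely cancelled in their average. ACSL1 minus CPT1A had an SD of 0.22 in those arrays. The gap was thus wider by 1.53 log2 units in shPGC-1alpha cells (SD 0.12 in shPGC-1alpha and 0.02 in shGFP arrays, n = 3 each), a 2.88-fold change in the ratio, whose direction the choice of genes fixes. Read from the dimmer CPT2 probe set, it was 1.36.

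The carnitine palmitoyltransferases catalyse the same exchange in opposite directions, CPT1A at the outer membrane and CPT2 inside the inner one. Their gap, CPT1A minus CPT2, was wider by 0.95, 1.35 and 1.23 in shPGC-1alpha arrays, against 0.07, -0.04 and -0.04 in shGFP arrays. Replicate 1 of shPGC-1alpha was the lowest of its group, with the highest CPT2 and the lowest CPT1A value among the shPGC-1alpha arrays. The differences of the 2 members at the outer membrane were unequal in size. Those of the 2 at the matrix side were close when CPT2 was read from its brighter probe set, as in these gaps. From its dimmer probe set CPT2 differed by -0.14, against -0.42 for ETFDH. ACSL1 minus CPT1A was wider by 0.86, 0.58 and 0.78 in shPGC-1alpha arrays, against -0.24, 0.05 and 0.19 in shGFP arrays, so the increase of ACSL1 exceeded that of CPT1A in each. CPT2 minus ETFDH read 0.05, 0.02 and -0.21 in shPGC-1alpha arrays, against 0.08, -0.01 and -0.07 in shGFP arrays, and these groups overlapped.

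**Figure D3:**
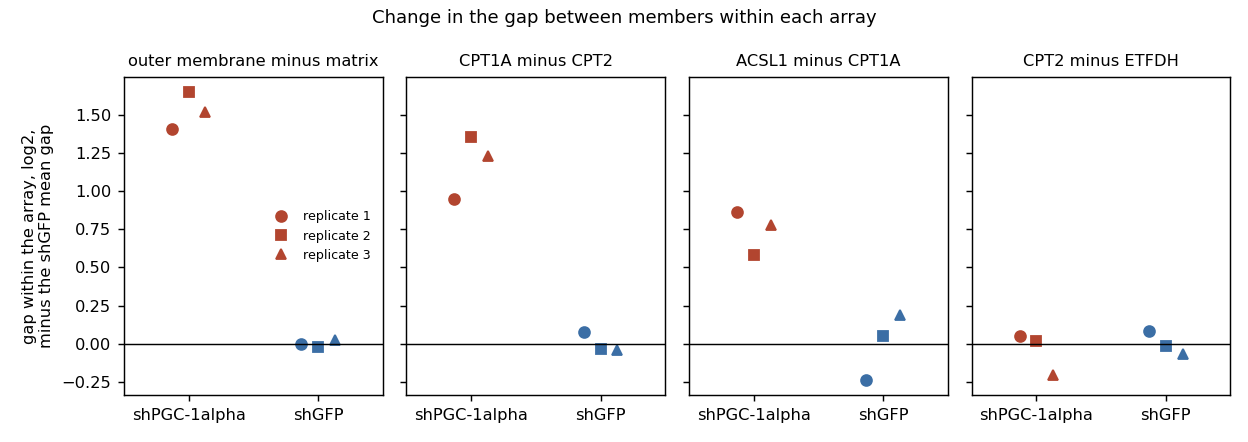
Gap in log2 value between members within each array, minus the mean gap of the shGFP arrays (y axis), for shPGC-1alpha (left in each panel) and shGFP arrays (right), with symbols for replicates. The outer membrane minus matrix gap reads 1.41 to 1.65 in shPGC-1alpha arrays and -0.02 to 0.02 in shGFP arrays, whereas the groups overlap for CPT2 minus ETFDH. CPT2 is read from its brighter probe set.

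The other genes of the route were read from lists of its steps. Of 73 listed genes other than the members, 35 were measured. In limma 2 of them rose and 11 fell at an adjusted p under 0.05, which is 37.1%, against 21.8% of all genes, and 9.58% and 12.2% of all genes were called higher and lower. Their median log2 difference was -0.08, against -0.02 over all genes. The lists were chosen with earlier results of these data known, so these shares are a description and no test. The number that fell was 7 without shGFP replicate 1, 2 or 3, and 5 when unnamed probe sets were fitted and adjusted together with the named ones.

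Both genes that rose were long-chain acyl-CoA synthetases, relatives of ACSL1. ACSL5, which resides on mitochondria and the endoplasmic reticulum, had 7.93, 7.85 and 7.76 in shPGC-1alpha arrays, against 6.24, 6.23 and 6.36 in shGFP arrays. It rose by 1.57 (SE 0.07) on the log2 scale (limma adjusted p 4.0e-05), or 2.98-fold. ACSL4, which prefers arachidonate and feeds phospholipid remodelling, had 11.41, 11.38 and 11.47 in shPGC-1alpha arrays, against 10.24, 10.23 and 10.16 in shGFP arrays. It rose by 1.21 (limma adjusted p 5.9e-05), or 2.31-fold. ACSL6, a form known from brain, lay below the 20th percentile of all genes, at 4.04 ± 0.17 in shPGC-1alpha cells and 4.11 ± 0.10 in shGFP cells (SD, n = 3 each), and was not called. ACSL3 was not analysed here.

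The acyl-CoA synthetases that fell were of other kinds. ACSF2, a mitochondrial medium-chain enzyme, had 6.54, 6.33 and 6.67 in shPGC-1alpha arrays, against 7.43, 7.41 and 7.43 in shGFP arrays, and fell by 0.91 (limma adjusted p 0.00070). ACSM3, a medium-chain enzyme of the mitochondrial matrix, fell by 0.56 (limma adjusted p 0.0014). ACSF3, the mitochondrial malonyl-CoA synthetase, and ACSS2, which activates acetate in cytosol and nucleus, fell by 0.28 each. The call of ACSF3 was lost without any single shPGC-1alpha array or shGFP replicate 3 (limma adjusted p up to 0.082) and that of ACSS2 without any single array other than shPGC-1alpha replicate 3 (up to 0.103). Over the 16 synthetases other than ACSL1, 2 rose, 4 fell and 10 were not called, with a median of -0.06. The share called was 37.5%, against 21.8% of all genes.

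Of the carnitine shuttle, 3 genes besides CPT1A and CPT2 were measured. CRAT, which attaches short acyl groups to carnitine in mitochondria and peroxisomes, had 7.76, 7.80 and 7.74 in shPGC-1alpha arrays, against 8.17, 8.29 and 8.19 in shGFP arrays, and fell by 0.45 (limma adjusted p 0.0030). CROT, the peroxisomal carnitine octanoyltransferase, at 0.13, and CPT1C, a neuronal CPT1 form, at -0.08, were not called. The CPT1 isoform CPT1B, the carrier SLC25A20 and the carnitine transporter SLC22A5 were not analysed here.

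Malonyl-CoA, the inhibitor of CPT1A, is made by ACACA and ACACB and removed by the decarboxylase MLYCD. ACACB, the form tied to mitochondria, fell by 0.30 and MLYCD by 0.57 (limma adjusted p 0.033 and 0.025), while ACACA, at -0.19, was not called. An enzyme that makes the inhibitor and the one that removes it were both lower. Neither call held with each array left out in turn: that of MLYCD was lost without shGFP replicate 1 or 2 (adjusted p up to 0.083) and that of ACACB without any single array other than shPGC-1alpha replicate 1 (up to 0.095). STK11, the kinase upstream of AMPK, was not called, at 0.21.

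Beyond CPT2, only 4 of 16 listed genes of matrix beta-oxidation were measured. Of these 3 fell and 0 rose, with a median of -0.34, where 12.2% of all genes fell and 9.58% rose. The step was thus read from a small part of its genes. HADH, the short-chain hydroxyacyl-CoA dehydrogenase, had 7.04, 7.03 and 6.81 in shPGC-1alpha arrays, against 7.35, 7.35 and 7.48 in shGFP arrays, and fell by 0.44 (limma adjusted p 0.010). ACAA2, the thiolase of the last step, fell by 0.34 (limma adjusted p 0.018), and was no longer called when shGFP replicate 2 was left out (adjusted p 0.067). ECI1, an isomerase for unsaturated acyl chains, fell by 0.34 (limma adjusted p 0.0082), while its relative ECI2, at -0.05, was not called. Over the 1817 genes called lower, the median was -0.45. Among the listed genes not analysed here were the acyl-CoA dehydrogenases ACADVL and ACADM and the trifunctional protein genes HADHA and HADHB.

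Around ETFDH, 8 further genes were measured, of which 1 fell and 0 rose, with a median of -0.10. The share that fell was 12.5%, against 12.2% of all genes, and 9.58% of all genes rose. FLAD1, the enzyme that makes the FAD carried by ETFDH and the acyl-CoA dehydrogenases, had 6.47, 6.54 and 6.36 in shPGC-1alpha arrays, against 6.88, 6.73 and 6.99 in shGFP arrays. It fell by 0.41 (limma adjusted p 0.016), and the call was lost without shPGC-1alpha replicate 3 and without shGFP replicate 1 or 3 (adjusted p up to 0.056). RFK, the riboflavin kinase that acts before FLAD1, was at 0.13 and not called. The flavoprotein-linked dehydrogenases GCDH, of lysine breakdown, and IVD, of leucine breakdown, were at -0.37 and -0.15 and not called. ETFA and ETFB, the subunits of the electron transfer flavoprotein, were not analysed here.

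**Figure D4:**
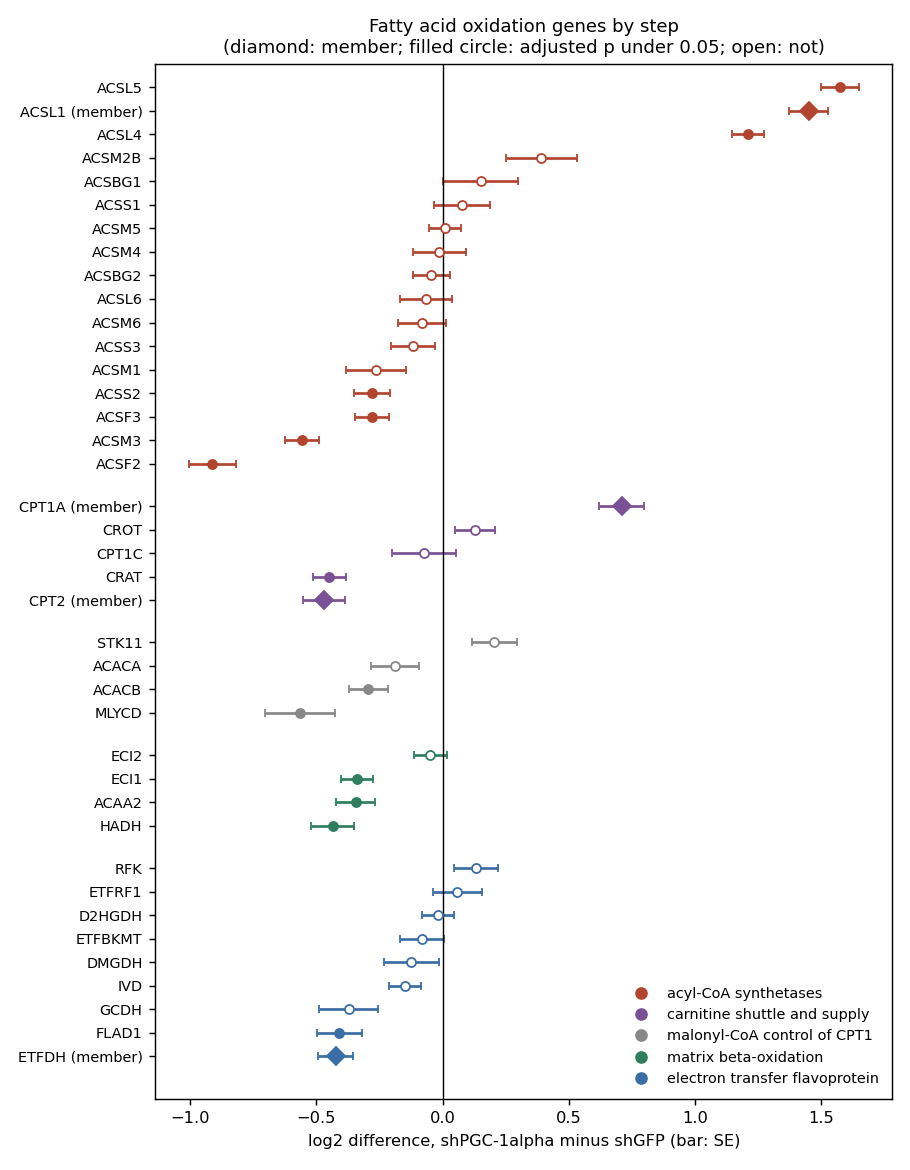
Log2 difference, shPGC-1alpha minus shGFP (x axis, bars are SE), of the 39 measured genes of fatty acid activation, transport and oxidation, grouped by step (colours). Diamonds are the 4 members, filled circles genes past an adjusted p of 0.05 and open circles genes that are not. ACSL5, ACSL1, ACSL4 and CPT1A stand apart on the right. Besides ETFDH, 4 genes of matrix beta-oxidation and 8 of the electron transfer group were measured, and 0 were called higher. Of all genes 9.58% were, and groups this small cannot tell 0 from that share.

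ETFDH is one of several enzymes that reduce ubiquinone. Of 10 other measured genes of such enzymes and their assembly factors, 1 rose and 4 fell, with a median of -0.13. The share called was 50%, against 21.8% of all genes. SDHAF4 and SDHAF2, assembly factors of succinate dehydrogenase, fell by 0.59 and 0.34, and CHDH, the choline dehydrogenase, by 0.58 (limma adjusted p 0.0012, 0.013 and 0.0066). PRODH, the proline dehydrogenase, fell by 0.31, and GPD2, the glycerophosphate dehydrogenase on the outer face of the inner membrane, rose by 0.27. The call of PRODH was lost without any single array other than shGFP replicate 3 (limma adjusted p up to 0.084), and that of GPD2 without shPGC-1alpha replicate 1 or 2 or shGFP replicate 1 or 2 (up to 0.080). Among 6 measured genes of ubiquinone synthesis and handling, COQ10B, a ubiquinone-binding protein, rose by 0.52 (limma adjusted p 0.0054). COQ10A, COQ4 and COQ9 fell by 0.31, 0.22 and 0.21. COQ4 and COQ9 were lost without any 1 of the 6 arrays, and COQ10A without shPGC-1alpha replicate 2 or 3 or shGFP replicate 2 or 3 (limma adjusted p up to 0.135 over the 3 genes).

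Acyl-CoA made by ACSL1 can also be cleaved again by thioesterases. THEM4, a mitochondrial acyl-CoA thioesterase, had 6.08, 5.97 and 6.01 in shPGC-1alpha arrays, against 7.13, 7.24 and 7.14 in shGFP arrays. It fell by 1.15 (limma adjusted p 8.2e-05), the largest decrease among the 16 measured genes of thioesterases and acyl-CoA binding proteins. In that list 1 rose, 3 fell and 12 were not called, with a median of 0.01. The share called was 25%, near the 21.8% of all genes. ACBD3, a Golgi protein with an acyl-CoA binding domain, fell by 0.40 (limma adjusted p 0.0065). ACOT8, of peroxisomes, rose by 0.25 and ACOT6 fell by 0.39. The call of ACOT8 was lost without any single array other than shPGC-1alpha replicate 3, and that of ACOT6 without shPGC-1alpha replicate 1 or 3 or shGFP replicate 1 or 3 (limma adjusted p up to 0.106). With its 2 probe sets averaged, ACOT6 was at -0.12 and not called.

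Likeness to each member was measured as the root mean square distance over the 6 arrays between log2 profiles, each relative to its own shGFP mean. The genes nearest to ACSL1 were OSTM1, IRAK2 and SCG5, at 0.07, 0.08 and 0.09 log2 units, where the median gene lay at 1.04. Those nearest to CPT1A were ENTPD4, ENTPD7 and DTX2, at 0.05, 0.07 and 0.07, against a median of 0.54. Those nearest to CPT2 were CEP89, ZBTB33 and CASP8AP2, each at 0.02, and those nearest to ETFDH were MXRA8, NBEAL2 and THOP1, at 0.02, 0.03 and 0.03, against medians of 0.36 and 0.32. None of these 12 genes is in the lists of fatty acid metabolism used here. Those lists hold so small a part of the named genes that a match among 12 was unlikely in any case. Nothing is concluded from its absence. Of the members, CPT2 and ETFDH were 0.10 apart and ACSL1 and CPT1A 0.54. This distance grows with the size of a difference: 319 genes lay nearer to CPT2 than ETFDH did, and 267 nearer to ACSL1 than CPT1A did.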

How the data were processed

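The authors deposited log2 expression values for 53617 probe sets, 1 column per array, with RMA and Affymetrix Expression Console named per the submitters' processing notes. Their versions were not stated, and scan batches were not analysed here. RMA evens out the arrays' distributions, so a shift of most transcripts 1 way would be reduced. There are no detection calls, and 3 arrays per group limit the precision.

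The platform annotation paired 16098 probe sets with 1 gene each and 0 with several, and left 37519 unnamed. The probe set with the highest mean stood for each of 14884 genes. Groups and replicate numbers came from the titles. The comparison of shPGC-1alpha with shGFP arrays used R 4.3.3 and limma 3.58.1 (lmFit, eBayes, no filter, no block), and p-values were adjusted by Benjamini-Hochberg over 14884 genes at 0.05. An exact permutation test of 3 against 3 cannot go under 0.1. SEs are limma's. The fit was run on simulated data with no effect shared between arrays, which checks its code and not the calls made here. Members and gene lists were chosen with earlier results of these data known. Besides members, genes were named if called in a list (up to 6 by smallest p), as fixed partners of the route, or as the 3 nearest profiles to a member. DGAT1, RFK, STK11, GCDH, IVD, ECI2, the cell type markers and genes listed as not called were named for completeness after their values were seen. Promoter windows came from RefSeq. Alternatives left out each array, added a replicate block, filtered dim genes, and changed probe sets, scaling, variance model, array weights and the family of tests.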

Additional observations from a re-analysis of the deposited data

How the results depend on the processing

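The 4 member differences and the gap kept their sign under all 17 alternatives. Leaving out 1 array could not have changed a sign, because the groups do not overlap. The replicate block, dim-gene filter, variance model and family of tests leave these differences unchanged by design. With 1 array left out, ACSL1 ranged from 1.38 to 1.51, CPT1A from 0.64 to 0.77, CPT2 from -0.54 to -0.41, ETFDH from -0.45 to -0.38 and the gap from 1.46 to 1.59. The CPT2 difference was -0.30 with its probe sets averaged, and -0.14 from the dimmer one, a setting chosen after seeing the data that gave a gap of 1.36. With all probe sets adjusted together, 767 genes were higher, 970 lower and 5 other oxidation genes lower, and 21 of the 44 called genes named here were no longer called; that setting changed both the variance estimate and the number of tests, and the cause was not tested. Centring on the named genes ended 10 of the 44 calls. The number of other oxidation genes that fell was 7 to 10 with 1 array left out. Then, too, the uncalled ACSL6 ranged from -0.14 to 0.027 and CPT1C from -0.18 to 0.027, so both changed sign.

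With the replicate number as a block, 1221 genes were higher and 1552 lower, and 2 other oxidation genes rose and 10 fell. In that fit 13 of the 44 calls were lost. The member differences could not change, because both groups hold the same replicate numbers. The block could alter only SEs and p-values. The labels do not say whether same-numbered arrays were prepared together. Deviations of same-numbered arrays correlated at 0.12, 0.09 and 0.02, and 5 of 6 arrays correlated best with their own number in the other group. Whether same-numbered arrays share an effect was not tested. RMA values carry no measure of signal over background, so dim probe sets such as the second of CPT2 limit what can be read.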

Other observations

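Lists of neighbouring routes of fatty acid use are given here by their counts, against 21.8% of all genes called (9.58% higher and 12.2% lower). These lists, too, were chosen with earlier results of these data known. Of 4 measured genes of peroxisomal oxidation, 2 fell and 0 rose, with a median log2 difference of -0.23 against -0.02 over all genes. PHYH, which starts the breakdown of branched chains, fell by 0.52 (limma adjusted p 0.0076), and PECR, an enoyl-CoA reductase, fell by 0.37, a call lost without shPGC-1alpha replicate 2 or 3 or shGFP replicate 2 or 3 (adjusted p up to 0.078). Of 4 measured genes of ketone body metabolism, 3 fell and 0 rose. OXCT1, which reactivates ketone bodies in mitochondria, had 7.47, 7.56 and 7.28 in shPGC-1alpha arrays, against 7.85, 8.04 and 7.90 in shGFP arrays, and fell by 0.49 (limma adjusted p 0.0094), with a difference of -0.19 that was not called when its probe sets were averaged. HMGCLL1 and OXCT2 fell by 0.25 and 0.28, calls lost without any single array for HMGCLL1 and without any other than shGFP replicate 3 for OXCT2 (limma adjusted p up to 0.14).

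Genes of fat storage and release went both ways, with 4 higher, 3 lower and 11 not called of 18 measured and a median of 0.03. G0S2, an inhibitor of the lipase that starts triglyceride breakdown, had 8.864, 8.813 and 8.970 in shPGC-1alpha arrays, against 7.898, 7.998 and 7.995 in shGFP arrays, and rose by 0.92. HILPDA, another inhibitor of that lipase, rose by 0.66, its activator ABHD5 by 0.53 and the monoglyceride lipase MGLL by 0.42. The acyltransferase GPAT3 fell by 0.76, and LPIN3 and DGAT1 fell by 0.29 and 0.26. The call of LPIN3 was lost without shPGC-1alpha replicate 1 or 2 or shGFP replicate 1 or 3, and that of DGAT1 without any single array other than shPGC-1alpha replicate 1 (limma adjusted p up to 0.083). Among 5 known PPAR targets outside oxidation, ANGPTL4, an inhibitor of lipoprotein lipase, rose by 0.88 and the lipoprotein receptor VLDLR by 0.38, while the desaturase genes SCD and FADS2 fell by 0.44 and 0.43. The FADS2 call was lost without shPGC-1alpha replicate 2 or 3 or shGFP replicate 2 or 3 (limma adjusted p up to 0.125). Of 8 measured PPAR and ERR regulators, 1 rose, 1 fell and 6 were not called, so 25% were called, near the 21.8% of all genes. PPARD rose by 0.43, and PPARA, at 0.23, and PPARG, at -0.16, were not called. Nor were ESRRA, the gene of ERRalpha, at 0.17, ESRRB at -0.06, ESRRG at -0.25 and the coactivator subunit MED1 at -0.14. The corepressor NRIP1 fell by 0.48. The measured genes of uptake were the fatty acid transporter CD36 and the binding protein FABP5, and neither was called. Their log2 differences were 0.03 and 0.17, and the mean level of CD36 over the 6 arrays was 2.34.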
